A study of Mus musculus with 8 samples.

Results

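MiR-143 and miR-145a are a pair of microRNAs cut from 1 shared precursor locus, and both arms of each hairpin were followed in mouse kidney after lipopolysaccharide (LPS, the endotoxin of Gram-negative bacteria). The 4 mature forms, mmu-miR-143-3p, mmu-miR-143-5p, mmu-miR-145a-5p and mmu-miR-145a-3p, written without the species prefix from here on, were taken by name from the 1881 miRNAs of an Agilent mouse miRNA array. The study held 8 kidney samples: 4 from an LPS-induced acute kidney injury model, given 10 µg LPS per g of body weight into the peritoneal cavity, and 4 sham samples, for which saline replaced LPS. The kidneys were collected after 24 h. RNA came from 30 mg of tissue, and 100 ng of it was labelled with Cy3 for each array. The labels number the samples without tying each to a separate mouse, and p-values therefore measure only the spread between these samples. The sources used here do not give the strain, sex or age of the mice.

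The miR-143 and miR-145a cluster is known as the signature miRNA pair of smooth muscle. In vessel walls it is switched on by serum response factor with its co-activator myocardin, and it holds smooth muscle cells in the contractile state by repressing factors such as Klf4 that favour proliferation. In kidney these cells are found in arteries, in the afferent and efferent arterioles and, as related mural cells, around capillaries and in the glomerular mesangium. In each hairpin 1 arm is the guide strand that enters Argonaute, miR-143-3p and miR-145a-5p here, and the other arm is the passenger strand, which is mostly degraded. Other miRNAs that the cluster is set against are miR-126a-3p, the endothelial miRNA used as a second vessel-wall reference, and miR-221-3p and miR-222-3p, which are known to favour the proliferative smooth muscle state. Their mature sequences from RefSeq (GRCm38.p6) are given 5′ to 3′ with the seed, bases 2 to 8, in capitals, because miR-221-3p, which fell, and miR-222-3p, which did not pass the test, have the same seed.
miR-126a-3p: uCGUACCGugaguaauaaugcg
miR-221-3p: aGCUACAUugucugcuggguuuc
miR-222-3p: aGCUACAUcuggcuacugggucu

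On the mm9 build used by the array files, all probes of the 4 forms map to chromosome 18. Those of miR-145a-5p span 61807494 to 61807507, those of miR-145a-3p 61807526 to 61807546, those of miR-143-5p 61808862 to 61808875 and those of miR-143-3p 61808895 to 61808909. The miR-145a-5p and miR-143-5p probes thus lie 1355 bases apart. In the RefSeq annotation both hairpin genes, Mir143 and Mir145a, lie inside Carmn, a long noncoding RNA that serves as their host transcript.

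All 8 arrays lay on 1 slide, with the sham arrays in row 1 and the LPS arrays in row 2. Effects of the row cannot be told apart from those of LPS. Between 15.8% and 17.5% of the non-control spots of an array were well above background, 336 to 375 miRNAs were detected per array, and no non-control spot was saturated. The labelling spike-in dmr_285 was brighter on LPS arrays (log2 signal 12.78 ± 0.12 against 12.44 ± 0.03, SD of 4 arrays in each group, exact 2-sided permutation p = 0.0286), and so was dmr_31a (11.01 ± 0.05 against 10.90 ± 0.03, exact permutation p = 0.0286). Of the 4 forms, miR-143-3p and miR-145a-5p were above background on all 8 arrays and entered the comparison of 338 miRNAs. The passenger arms did not.

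LPS kidneys held less miR-145a-5p than sham kidneys, while miR-143-3p from the same host transcript did not pass the test. The fall of miR-145a-5p was to 73.6% of the sham level. Of the 338 miRNAs tested, 25.4% were called lower in LPS kidneys and 40.2% were called in either direction, so the fall was one of many. Fewer smooth muscle cells and less miRNA per cell cannot be told apart in whole kidney RNA.

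The level of miR-145a-5p, a log2 signal relative to the 75th percentile of each array, was -0.43, -0.46, -0.68 and -0.54 on sham arrays 5, 6, 7 and 8. It was -0.89, -1.07, -1.04 and -0.88 on LPS arrays 6, 10, 11 and 12. Every LPS array lay below every sham array, as was the case, in one direction or the other, for 37.0% of the tested miRNAs. The group means were -0.53 ± 0.11 and -0.97 ± 0.10 (SD, n = 4 per group). The log2 difference was -0.44 ± 0.08 (SE, 95% interval -0.62 to -0.27, limma, adjusted p = 0.00278), which places LPS kidneys between 65.2% and 83.1% of the sham level.

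The fall was visible in the scanner signal before any scaling. Summed over its probes, the background-subtracted signal of miR-145a-5p was 359, 341, 318 and 343 units on sham arrays 5, 6, 7 and 8 and 275, 256, 257 and 268 units on LPS arrays 6, 10, 11 and 12. Both probes of miR-145a-5p, each printed as 15 spots and above background in 100% of spots, gave the same size of fall. They map to nearly the same stretch, 61807495 to 61807507 and 61807494 to 61807507, and are not independent readings. Before scaling, the first went from 130 ± 5.95 to 101 ± 2.90 units and the second from 211 ± 11.2 to 163 ± 6.73 units (SD, n = 4 per group). The unscaled log2 difference of the miRNA was -0.37, smaller than the scaled one. After scaling to the 75th percentile, the log2 differences of the probes were -0.44 ± 0.07 and -0.44 ± 0.08 (SE, limma, adjusted p = 0.00239 and 0.00330, in a fit over 633 probes of which 38.9% were called). The median coefficient of variation over spots of a probe on an array was 5.54% and 5.62%.

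**Figure D1:**
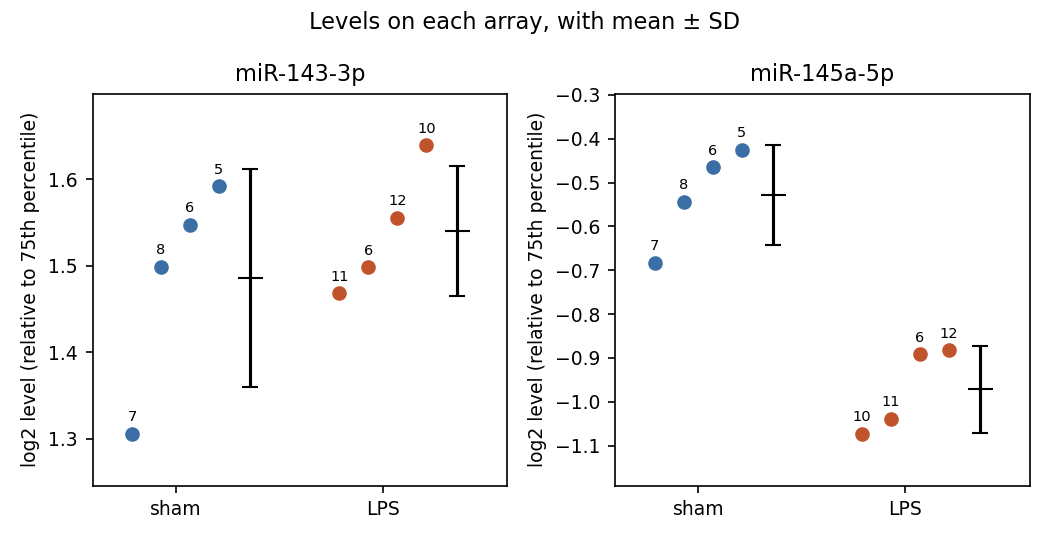
Log2 level of miR-143-3p and miR-145a-5p relative to the 75th percentile of each array (vertical axes) on the 4 sham and 4 LPS arrays. Points are arrays, numbered as in the labels, in order of level, and bars give mean ± SD. The 2 groups overlap for miR-143-3p and do not overlap for miR-145a-5p, whose LPS levels run from -1.07 to -0.88.

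MiR-143-3p, the guide strand of the neighbouring hairpin, was at 1.59, 1.55, 1.31 and 1.50 on sham arrays 5, 6, 7 and 8 and at 1.50, 1.64, 1.47 and 1.56 on LPS arrays 6, 10, 11 and 12. The groups overlapped, with sham array 7 the lowest and LPS array 10 the highest of all 8. The means were 1.49 ± 0.13 and 1.54 ± 0.08 (SD, n = 4 per group), a log2 difference of 0.05 ± 0.08 (SE, limma, adjusted p = 0.591). The 95% interval, from -0.12 to 0.23, allows LPS levels from 92.1% to 117% of sham, and a p that misses the threshold does not show that the levels were equal. It does not reach the 73.6% seen for miR-145a-5p.

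Before scaling, the signals of its 2 probes were 576 ± 35.9 and 800 ± 48.1 units in sham and 629 ± 43.5 and 878 ± 69.6 units in LPS kidneys (SD, n = 4 per group), and the unscaled log2 difference of the miRNA was 0.13. After scaling, the probes differed by 0.05 ± 0.08 and 0.06 ± 0.07 (SE). Without scaling, the summed signal ran from 1260 to 1453 units in sham and from 1441 to 1676 in LPS kidneys, where LPS array 10 was the brightest. The median spread over spots was 2.98% and 2.58%.

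The small miR-143-3p difference lay below 0 in 2 of the 27 alternatives. It was -0.09 with scaling to the labelling spike-ins, which also moved the median of all 338 miRNAs from -0.08 to -0.23, and -0.01 without sham array 7, in neither case past the test. Relative to the median of all tested miRNAs, miR-143-3p stood at 0.14 and miR-145a-5p at -0.36 as reported. Scaling to the spike-ins cannot change these values, because it moves every miRNA of an array by the same amount. Over the 27 alternatives, the relative value ran from 0.05 to 0.16 for miR-143-3p and from -0.52 to -0.25 for miR-145a-5p. MiR-145a-5p was lower in LPS kidneys, and past the test, under all 27 alternatives run, by -0.59 with the spike-ins and by -0.32 with another background correction (normexp) at the extremes.

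**Figure D2:**
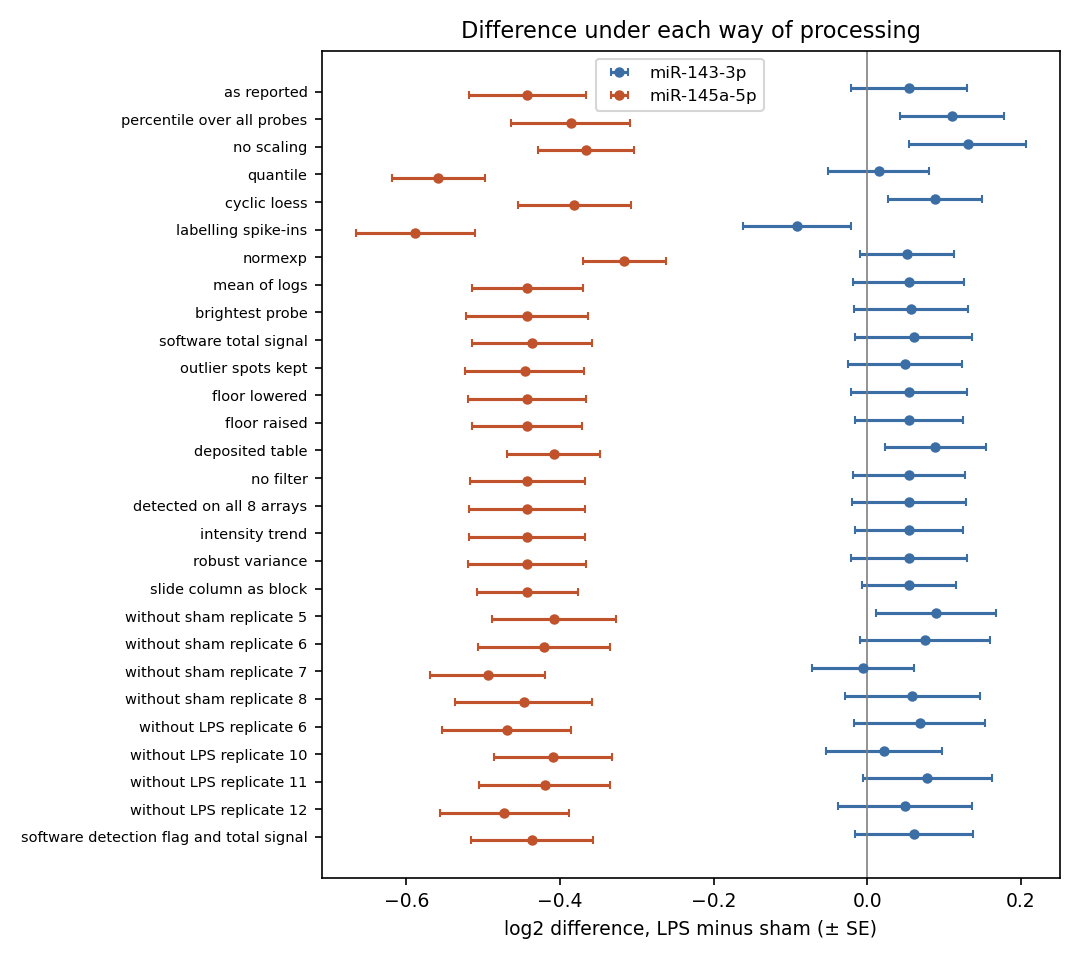
Log2 difference, LPS minus sham, ± SE (horizontal axis) of miR-143-3p and miR-145a-5p as reported and under each of the 27 alternatives (vertical axis). MiR-145a-5p stays between -0.59 and -0.32, and miR-143-3p between -0.09 and 0.13, on both sides of 0.

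The passenger strands were dim in both groups. MiR-143-5p was above background on 1 of 4 sham arrays, number 8, and on 0 of 4 LPS arrays. Only 1 of its 2 probes carried signal, 15.5 ± 2.14 units in sham and 15.7 ± 1.30 in LPS kidneys (SD, n = 4 per group), with 26.7% and 20% of its spots well above background. The other probe had 0.617 ± 0.659 and 0.10 ± 0.998 units. The summed signal of miR-143-5p was 16.7, 15.5, 12.96 and 19.4 units on sham arrays 5, 6, 7 and 8 and 14.2, 16.3, 18.7 and 13.9 units on LPS arrays 6, 10, 11 and 12, so the groups overlapped. Sums under a floor of 18.4 to 21.1 units, depending on the array, were raised to it. The sum of miR-143-5p was under the floor on all 8 arrays, sham array 8 included.

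The scanner software's own flag was more lenient and called miR-143-5p detected on 4 of 4 arrays in each group. In a fit on that flag and the software's total signal, chosen after seeing the data, 32.1% of 430 miRNAs were called and miR-143-5p differed by -0.05 ± 0.11 (SE, 95% interval -0.31 to 0.21, limma, adjusted p = 0.753), so that a fold between 0.806 and 1.16 is allowed. In the same fit miR-145a-5p differed by -0.44 ± 0.08 (adjusted p = 0.00653).

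MiR-145a-3p was not well above background on any array by either rule. Its 4 probes, of 7 or 8 spots each, had mean signals between -1.21 and 7.09 units, and their sum was 6.26 to 8.49 units in sham and 5.98 to 12.9 in LPS kidneys. No fold is given for it, and at this signal a fall like that of its guide strand was not detectable. The same holds for miR-145b, a paralogue of miR-145a from another locus, whose 2 probes stayed between -2.31 and 0.990 units.

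**Figure D3:**
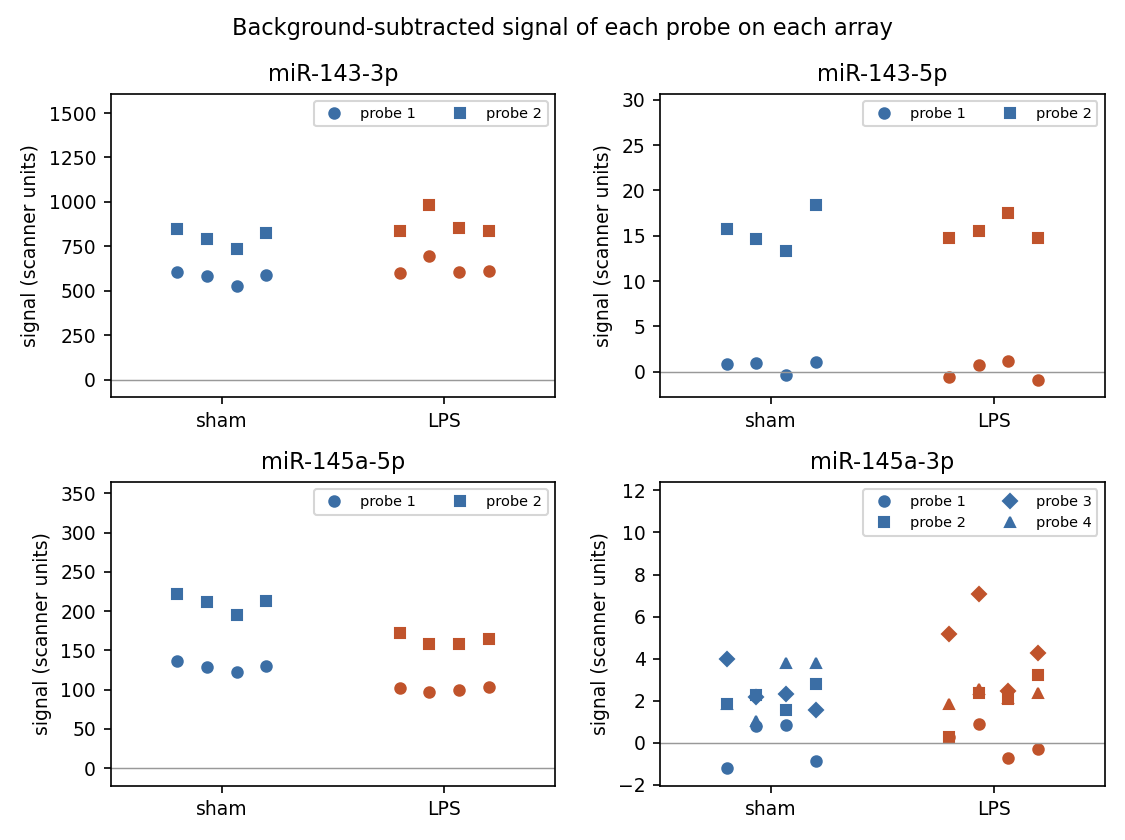
Background-subtracted signal in scanner units (vertical axes, each with its own range) of every probe of the 4 mature forms on the 4 sham and 4 LPS arrays, 1 point per probe and array. Both miR-145a-5p probes are lower on LPS arrays, at 97.1 to 172 units against 122 to 222, while the passenger arms lie at or near 0 except for 1 miR-143-5p probe.

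Because the ratio of 2 miRNAs within an array does not depend on a scaling by a single factor per array, it shows whether they changed unequally. Scaling that acts by signal level can move it. With quantile scaling miR-145a-5p differed by -0.56 and miR-143-3p by 0.01. The log2 ratio of miR-145a-5p to miR-143-3p was -2.02, -2.01, -1.99 and -2.04 on sham arrays 5, 6, 7 and 8 and -2.39, -2.71, -2.51 and -2.44 on LPS arrays 6, 10, 11 and 12. The groups did not overlap, the ratio had an SD of 0.02 over the sham arrays, where the miRNAs alone had SDs of 0.11 and 0.13, and an SD of 0.14 over the LPS arrays. The mean ratio fell by 0.50 on the log2 scale, to 70.9% of that in sham kidneys (exact 2-sided permutation p = 0.0286 with n = 4 per group, which is the lowest value 4 against 4 arrays can reach, adjusted p = 0.0429 over the 3 pairs computed of 5 planned, the others needing a passenger arm). With the software's flag the miR-143 arms could be paired as well, and over these 4 pairs the adjusted p was 0.0571 for the same difference. The mean difference was -0.43 without LPS array 10 and lay between -0.54 and -0.49 without any other single array. With normexp it was -0.37.

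Against miR-126a-3p, which is made in endothelial cells from an intron of Egfl7 and did not pass the test itself (-0.02 ± 0.06 SE, limma, adjusted p = 0.840), the pair separated in the same way. The log2 ratio of miR-145a-5p to miR-126a-3p was -4.61, -4.64, -4.78 and -4.62 on sham arrays 5, 6, 7 and 8 and -4.98, -5.30, -5.10 and -5.00 on LPS arrays 6, 10, 11 and 12, again without overlap. It fell by 0.43 (exact permutation p = 0.0286, n = 4 per group, adjusted p = 0.0429, or 0.0571 over the 4 pairs with the software's flag). The ratio of miR-143-3p to miR-126a-3p was -2.65 ± 0.10 in sham and -2.58 ± 0.02 in LPS kidneys (SD), a difference of 0.07 with overlapping groups (n = 4 per group, exact permutation p = 0.143, adjusted p = 0.143). The ratio of the miR-143 arms, available with the software's flag only, differed by 0.11 (exact permutation p = 0.314, n = 4 per group, adjusted p = 0.314).

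**Figure D4:**
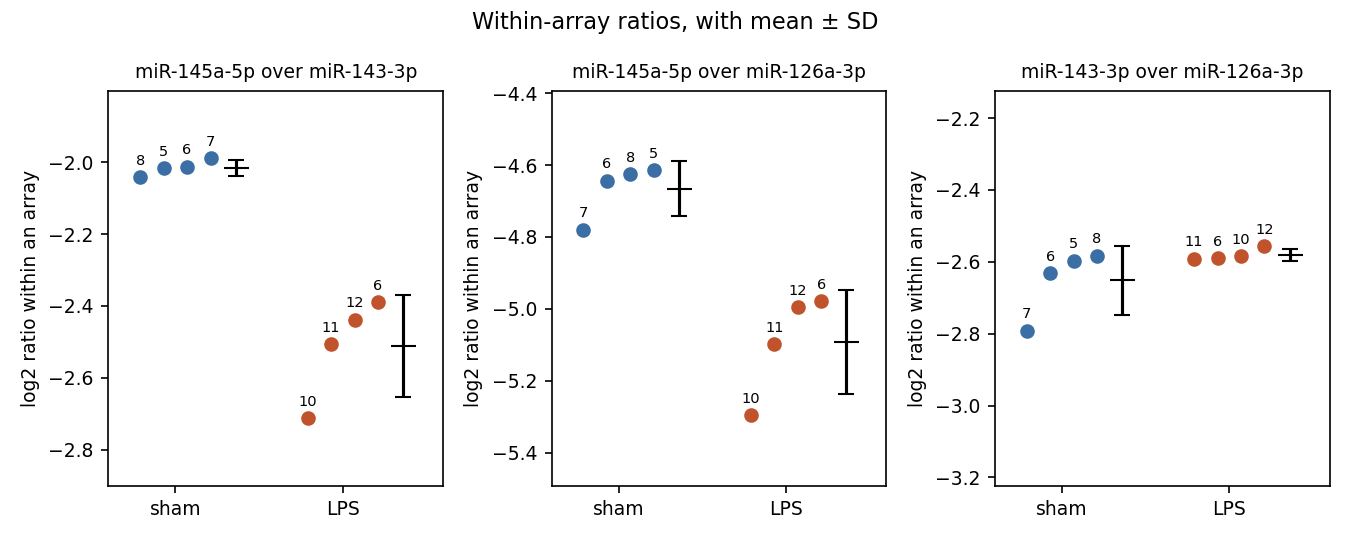
Log2 ratio of 2 miRNAs within each array (vertical axes, equal span) for the 4 sham and 4 LPS arrays, numbered as in the labels, with mean ± SD. Both ratios with miR-145a-5p on top lie lower on each LPS array than on any sham array, while the ratio of miR-143-3p to miR-126a-3p overlaps between groups.

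Other miRNAs known to act on the smooth muscle state gave calls in both directions. Of 5 listed miRNAs that favour the contractile state, 4 were tested, 0 rose and 1 fell, where 25.4% of all tested miRNAs were called lower, with a median log2 difference of 0.02 against -0.08 over all tested miRNAs. The one that fell was miR-204-5p (-0.19 ± 0.06 SE, limma, adjusted p = 0.0378), which kidney tubules also make and whose call was lost in 15 of 27 alternatives. MiR-1a-3p, which shares the control of the cluster by serum response factor in muscle, differed by 0.13 ± 0.12 (adjusted p = 0.415). MiR-133b-3p differed by -0.06 ± 0.12 (adjusted p = 0.694), although it was above background on only 2 of 4 sham arrays, and miR-10a-5p by 0.10 ± 0.09 (adjusted p = 0.403). MiR-133a-3p was not above background on all arrays of either group and was not tested.

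Of 8 listed miRNAs that favour the proliferative state, 7 were tested, 1 rose and 1 fell, with a median of 0.07. In the series 14.8% of tested miRNAs were called higher. The riser was miR-21a-5p (2.22 ± 0.08, limma, adjusted p = 1.95e-07), which is made in many cell types of injured kidney. The one that fell was miR-221-3p, a repressor of p27 and Kit, from 0.97 ± 0.04 to 0.65 ± 0.08 (SD, n = 4 per group, -0.32 ± 0.06 SE, limma, adjusted p = 0.00278). MiR-222-3p, its cluster partner with the same seed shown above, differed by 0.08 ± 0.06 (adjusted p = 0.276). It lay below 0 in 2 of 27 alternatives and was called higher in 1, cyclic loess scaling (0.15, limma, adjusted p = 0.0349). Whether miR-221-3p and miR-222-3p changed unequally was not tested. The others, miR-24-3p, miR-146a-5p, miR-26a-5p and miR-130a-3p, differed by 0.04, 0.18, -0.07 and 0.07. None of them passed the test (limma, adjusted p = 0.658, 0.166, 0.405 and 0.482). MiR-146a-5p was called higher in 1 of 27 alternatives, and miR-26a-5p was called lower in 1. MiR-31-5p was not tested.

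**Figure D5:**
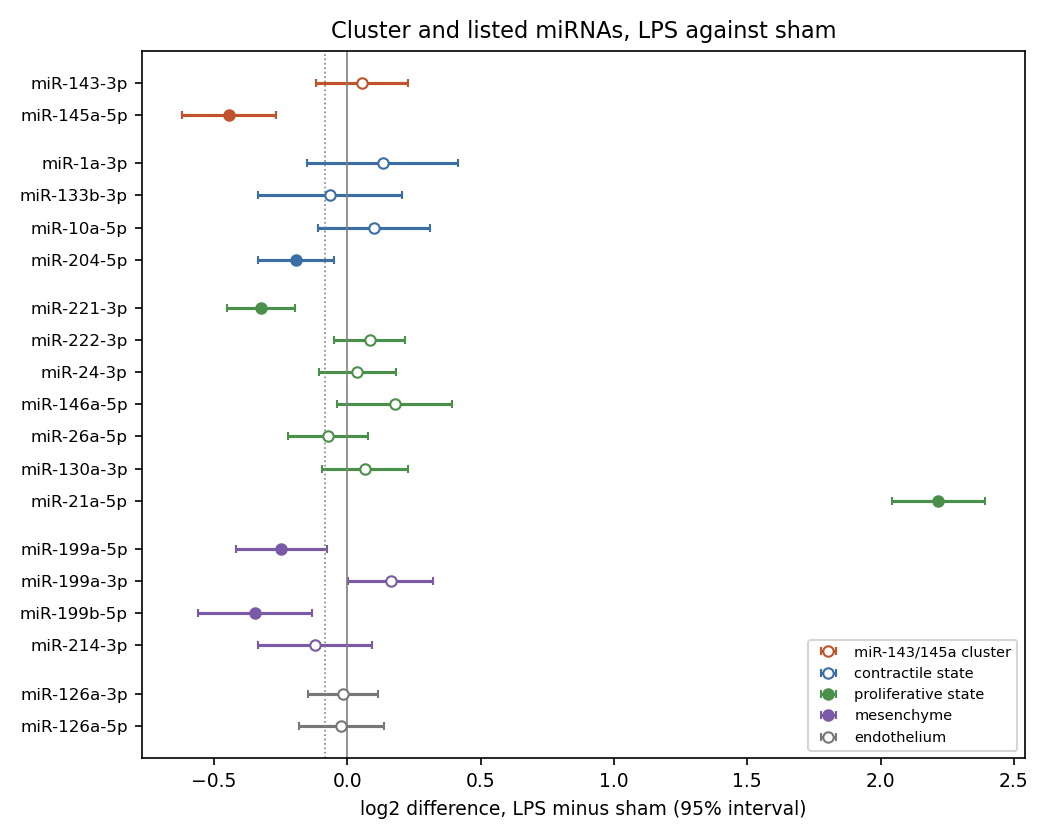
Log2 difference, LPS minus sham, with its 95% interval (horizontal axis) for miR-143-3p, miR-145a-5p and the tested miRNAs of 4 lists (vertical axis, coloured by list). Filled points passed the test and the dotted line is the median of all 338 tested miRNAs, -0.08. MiR-145a-5p lies lowest at -0.44 and miR-21a-5p highest at 2.22 among those shown.

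Markers of the cells around smooth muscle gave the following values, and their part in the fall of miR-145a-5p was not tested. Of 5 mesenchymal miRNAs besides the cluster 4 were tested. Of these, miR-199b-5p (-0.35 ± 0.09 SE, limma, adjusted p = 0.0216) and miR-199a-5p (-0.25 ± 0.07, adjusted p = 0.0309) fell, where 25.4% of all tested miRNAs were called lower. These calls were lost in 5 and 12 of 27 alternatives. The other arm miR-199a-3p differed by 0.16 ± 0.07 (adjusted p = 0.0973) and miR-214-3p by -0.12 ± 0.09 (adjusted p = 0.323). MiR-199a-3p lay above 0 in all 27 alternatives and was called higher in 2 of them. The summed level of the 4 was 2.15 to 2.32 in sham and 2.13 to 2.41 in LPS kidneys. This sum rests mostly on miR-199a-3p, with a sham mean of 1.49. The sham means of miR-199b-5p, miR-199a-5p and miR-214-3p were -0.05, -0.47 and -2.26. The 2 endothelial miRNAs summed to 4.13 to 4.23 in sham and 4.10 to 4.27 in LPS kidneys, mostly from miR-126a-3p. Of them 0 of 2 were called, where 40.2% of all tested miRNAs were called in either direction.

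All 3 kidney tubule miRNAs, miR-192-5p, miR-194-5p and miR-204-5p, fell, where 25.4% of all tested miRNAs were called lower. Their summed level was 4.26 to 4.45 in sham and 3.98 to 4.22 in LPS kidneys. These kidney markers were above background on all 8 arrays, and their calls were lost in 10, 2 and 15 of 27 alternatives. Of 5 leukocyte miRNAs 2 rose, miR-223-3p (0.86 ± 0.09) and miR-155-5p (1.68 ± 0.08, limma, adjusted p = 2.25e-06), where 14.8% of all tested miRNAs were called higher. MiR-142a-3p (0.26), miR-142a-5p (0.13) and miR-150-5p (-0.22, adjusted p = 0.126) did not pass the test. Each was called in 1 of 27 alternatives. There miR-142a-3p and miR-142a-5p were called higher (limma, adjusted p = 0.00621 and 0.0329). MiR-150-5p was called lower with the spike-ins (adjusted p = 0.0104). The list summed to 0.94 to 1.44 in sham and 1.63 to 1.76 in LPS kidneys. Of 3 red-cell miRNAs 2 were tested and both rose, against the same 14.8% called higher. The differences were 2.43 ± 0.71 for miR-451a (SE, limma, adjusted p = 0.0285) and 2.46 ± 0.68 for miR-144-3p (adjusted p = 0.0235). These calls were lost in 6 of 27 and 8 of 26 alternatives. MiR-144-3p was above background on only 2 of 4 sham arrays, and its difference ran from 0.997 to 4.11 over the alternatives. The summed level of the list was -0.97 to 1.64 in sham and 1.01 to 3.78 in LPS kidneys, ranges that overlapped. Of 5 striated muscle miRNAs 1 was tested, miR-1a-3p. The others, miR-133a-3p, miR-206-3p, miR-208a-3p and miR-499-5p, were not above background on any of the 8 arrays. Liver miR-122-5p was not tested for the same reason.

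The miRNAs that varied most like the cluster from array to array were found after removing the group means, over the 304 other miRNAs above background on all 8 arrays. The values share each array's RNA, labelling and scaling, so the correlations only describe these 8 arrays. For miR-145a-5p they were miR-652-5p (Pearson r = 0.902, LPS minus sham -0.43 ± 0.07 SE), miR-677-3p (r = 0.880, -0.05 ± 0.06) and miR-6366 (r = 0.866, -0.31 ± 0.06). For miR-143-3p they were miR-1949 (r = 0.861, 0.21 ± 0.05), miR-6973b-5p (r = 0.842, 0.13 ± 0.08) and miR-326-3p (r = 0.823, -0.33 ± 0.08). MiR-143-3p and miR-145a-5p correlated with each other at r = 0.534. On the sham arrays both were highest on array 5 and lowest on array 7, whereas on the LPS arrays array 10 had the highest miR-143-3p and the lowest miR-145a-5p.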

How the data were processed

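MiRNA signals were measured on 8 arrays, 4 sham and 4 LPS. The authors deposited the scanner's intensity readings for every spot. Per the submitters' processing notes they come from Agilent Feature Extraction 12.0.3.1, and per the file headers they were background-subtracted with spatial detrending and not scaled between arrays. The authors also deposited a table of linear ratios, used only as an alternative. Set against the software's total signals of 383 miRNAs, 100% of its values lay within 0.01 log2 once each array and each miRNA was given a constant factor. The values are thus linear and centred by miRNA, and how the factors of the arrays arose stays unknown. Its column medians were 0.995, 1.06, 1.05 and 0.980 for sham arrays 5, 6, 7 and 8, and 0.958, 0.960, 1.01 and 1.03 for LPS arrays 6, 10, 11 and 12.

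Spots the software marked as outliers were left out, spots of a probe averaged, arrays scaled by the 75th percentile of the 551 probes that all 8 detected, and probes of a miRNA summed, floored at -4.68 log2 and log2-transformed. A probe was above background on an array when over 50% of its spots were marked so by the software. A miRNA entered the test where 1 group detected it on 4 of 4 arrays, as 338 miRNAs did, and these were tested with limma 3.58.1 in R 4.3.3 (lmFit, eBayes, 2-sided, no covariates, Benjamini-Hochberg over all tested, threshold 0.05). The number of arrays limits the precision. Within-array ratios were compared by exact permutation. The fit was tested on simulated data. The miRNAs named were the 4 arms of the cluster, fixed lists of smooth muscle and cell type miRNAs, and the 3 most like each detected arm. The cluster and the lists were chosen with earlier results of these data known. Alternatives covered scaling, background, probe summary, filter, floor, variance model, slide column, the deposited table, the software's flag and leaving out each array.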

Additional observations from a re-analysis of the deposited data

Results flagged for a closer look

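Among 74 sets of 4 values, each a miRNA in 1 group, 3 had a single array well apart, and about 3.70 would by chance. In each it was LPS array 10, the array with the highest miR-143-3p and the lowest miR-145a-5p of its group. It was at -0.18 for miR-146a-5p, with the other LPS arrays at -0.41 to -0.37. For miR-130a-3p it was at 3.17, with the others at 2.91 to 2.93. For miR-199a-5p it was at -0.55, with the others at -0.79 to -0.76.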

How the results depend on the processing

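Of the 27 alternatives, 8 left out 1 array each. MiR-145a-5p kept its direction and its call in all of them, with adjusted p from 3.15e-04 to 0.0392 (limma), the highest with all 1881 miRNAs tested. Leaving out 1 array gave -0.49 to -0.41. MiR-143-3p was not called in any (adjusted p from 0.237 to 0.960), at -0.092 with spike-in scaling and at -0.0059 to 0.09 without single arrays. The alternatives of filter, floor, variance model and slide column left the difference of either miRNA unchanged, so they could only move its call. The 3 ratios were computed in only 17 of the 27 alternatives and kept their direction in each of these. Counts over the series moved more. As reported, 136 miRNAs changed, 50 higher and 86 lower. Lower calls numbered 53 with the percentile over all probes, 49 without scaling, 155 with the spike-ins and 53 in the deposited table. With all miRNAs tested, 60 changed, 29 higher and 31 lower, and with slide column as a block 80 changed, 45 lower. Leaving out 1 array gave 85 to 152 changed, 33 to 54 higher and 49 to 106 lower. Changed calls numbered 85 without sham array 6 and 88 without LPS array 12, and lower calls 49 and 55, while lower calls were 56 without sham array 7 and 56 without LPS array 11. The causes were not tested. No paired analysis was possible by replicate number, because the groups share only 1; the slide column, which pairs arrays by position, was the block used above. The signal over background limits what can be said of the passenger arms.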
